A study of Mus musculus with 18 samples.

Results

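The genes described here encode the enzymes that join amino acids to their transfer RNAs, the aminoacyl-tRNA synthetases, in the cytosol and in mitochondria. Members were taken by name: 20 genes for cytosolic enzymes or their subunits, 16 genes for separate mitochondrial enzymes, whose symbols end in 2, and the scaffold genes Aimp1 and Aimp2. Of these 38 genes, 35 were listed in at least 1 of the 3 tables analysed, out of 10110 genes listed in at least 1 table. The tables come from immortalized mouse embryonic fibroblasts of an eIF2aS51A line and a Wild-Type (WT) line. Polyadenylated RNA was measured in S51A cells that were untreated (0 min) or held in 500 µM hydrogen peroxide for 15 or 120 min, and in WT cells under the same conditions, with 3 samples in each of the 6 groups per the labels. The series design text speaks of duplicates instead. In the S51A form of eIF2α the serine that stress kinases phosphorylate is replaced by alanine. Each genotype is a single line, so genotype and line cannot be told apart.

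Each synthetase attaches its own amino acid to the matching tRNA, and the charged tRNA is then carried to the ribosome. Most mitochondrial enzymes are made from separate nuclear genes, while Gars and Kars each serve both compartments. Several cytosolic synthetases sit together in the multisynthetase complex, held by scaffold proteins that include the products of Aimp1 and Aimp2. When eIF2α is phosphorylated, translation of the transcription factor ATF4 goes up, and ATF4 is known to activate many cytosolic synthetase genes through C/EBP-ATF response elements.

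Each table holds, for a given time, the genes with a called difference between S51A and WT cells, with 1 FPKM value per line (fragments scaled to transcript length and to library size). Values of single samples were not used here, so neither a spread between replicates nor a depth can be given. "Listed as lower" or "higher" therefore means called by the authors at a q-value of at most 0.05, and no test of the members was added. A gene that is not listed may not have been called, which is no sign of equal levels. The labels do not state whether the samples of a group were grown separately, and the spread behind the q-values may be technical. Eif2s1, the gene for eIF2α, was at 45.3 FPKM in S51A cells and 91.8 FPKM in WT cells at 0 min, a level that does not check a point mutation. Of 13 fibroblast markers, 11 were listed at 0 min, 8 higher and 3 lower in S51A cells, among them Vim at 1075 FPKM in S51A cells and 1872 FPKM in WT cells and Col1a1 at 1160 FPKM in S51A cells and 241 FPKM in WT cells. None of 4 endothelial markers and 1 of 4 haematopoietic markers was listed at that time. Of 5 epithelial markers Krt19 alone was listed, at 8.17 FPKM in S51A cells and 6.06 FPKM in WT cells. Of 4 neural markers, Tubb3 was at 74.0 FPKM in S51A cells and 16.2 FPKM in WT cells, and Nes at 34.8 FPKM in S51A cells and 52.3 FPKM in WT cells. Acta2, a smooth muscle and myofibroblast marker, was at 111 FPKM in S51A cells and 23.6 FPKM in WT cells. The part of these marker differences in the members' values was not tested. The bulk values cannot tell fewer cells of a kind from less RNA per cell.

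The first question was how the cytosolic enzymes differed between the lines before any oxidant. Of 19 listed cytosolic members, 18 were lower in S51A cells and 1 was higher. All listed entries of that table were lower in 50.4% and higher in 49.6% of cases, and entries whose WT level lay in the range of these members were lower in 84.8%. Choosing entries by their WT level favours genes that are lower in S51A cells, and with the mean of both lines as the level the share was 75.3%. The median log2 ratio of S51A over WT was -0.74 over the cytosolic members, against -0.27 over all listed entries. That last value mixes entries listed as lower, with a median of -0.72, and as higher, with a median of 0.90. The cytosolic median was thus near that of lower entries in general. Cars, the cysteinyl-tRNA synthetase gene, had the largest difference, with 26 FPKM in S51A cells and 73.0 FPKM in WT cells, 2.83-fold lower. Yars, for tyrosine, was 2.13-fold lower, at 39.7 FPKM in S51A cells and 85.0 FPKM in WT cells. Aars, for alanine, had the smallest difference, 1.25-fold, with 111 FPKM in S51A cells and 139 FPKM in WT cells. Mars, for methionine, was in none of the tables.

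Levels of the listed cytosolic genes at 0 min ran between 23.6 and 162 FPKM in S51A cells and between 37.8 and 221 FPKM in WT cells. Kars, for lysine, was the most abundant in WT cells, and Gars, for glycine, in S51A cells. Gars was at 162 FPKM in S51A cells and 205 FPKM in WT cells, and Kars at 133 FPKM in S51A cells and 221 FPKM in WT cells. Wars, for tryptophan, was the least abundant in S51A cells and Eprs in WT cells, so the order of the genes differed between the lines. Wars was at 23.6 FPKM in S51A cells and 39.4 FPKM in WT cells.

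After 15 min, 17 of 18 listed cytosolic members were lower in S51A cells, against 50.1% of all listed entries (49.9% were higher) and 77.4% of entries in the same range of WT level. After 120 min, 14 of 15 were lower, against 49.1% of all listed entries (50.9% were higher) and 55.5% of those in that range. The share of lower calls among genes of like abundance was thus smallest at 120 min, while 1 cytosolic member was higher at each time. The median log2 ratio of the cytosolic members was -0.71 at 15 min and -0.68 at 120 min, against -0.20 and 0.41 over all listed entries. Since lower and higher entries were near equal in number, the median over all entries can change sign with a small shift in that balance. Entries listed as lower had medians of -0.62 at 15 min and -0.90 at 120 min, and those listed as higher 0.81 and 1.03. With the mean of both lines as the level, the shares of lower entries were 67.5% at 15 min and 45.8% at 120 min. Counting only entries with a fold of at least 1.5, 13, 14 and 12 cytosolic members were lower at these times, against 47.6%, 45.5% and 47.9% of all such entries. With a q-value of at most 0.01 they were 18, 16 and 13, against 50.2%, 49.9% and 49.8%. With at least 5 FPKM in either line they were 18, 17 and 14, against 55.7%, 55.0% and 50.3%. Of all genes listed at any time, 74.7%, 82.0% and 60.4% were listed at 0, 15 and 120 min. Of the 35 members listed at any time, 32, 31 and 23 were.

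Of the 15 cytosolic members listed at every time, 14 were lower in S51A cells at all of them, where 46.2% of the 3826 genes listed in all tables were. That share was not computed for genes of like abundance, which were more often lower than all entries at each single time when chosen by WT level. Iars, the isoleucyl-tRNA synthetase gene, was at 52.7, 48.8 and 34.5 FPKM in S51A cells at 0, 15 and 120 min, against 77.7, 89.3 and 85.6 FPKM in WT cells. Its difference was thus 1.47-fold at 0 min and 2.46-fold at 120 min. Aars was at 111, 113 and 90.5 FPKM in S51A cells and at 139, 139 and 153 FPKM in WT cells, with a difference of 1.69-fold at the last time. Both genes were lower at 120 than at 0 min in S51A cells and higher in WT cells. Cars stayed near its first value, at 26, 24.8 and 24.1 FPKM in S51A cells against 73.0, 68.6 and 62.2 FPKM in WT cells.

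Rars and Hars, for arginine and histidine, showed a smaller difference at the last time. Rars was at 80.4, 81.6 and 106 FPKM in S51A cells at 0, 15 and 120 min, against 150.1, 148 and 141 FPKM in WT cells. Hars was at 57.3, 57.3 and 74.5 FPKM in S51A cells, against 111, 103 and 105 FPKM in WT cells. Nars, for asparagine, had higher values at 120 min in both lines, with 118, 125 and 162 FPKM in S51A cells and 214, 204 and 251 FPKM in WT cells. Tars, for threonine, was at 95.7, 95 and 107 FPKM in S51A cells and at 159, 155 and 184 FPKM in WT cells, also highest at the last time in each line. Levels at different times come from different tables, which may have been normalized separately, so these courses are descriptions.

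The other members lower at all times differed between the lines by 1.54- to 2.13-fold. Kars was at 133, 134 and 142 FPKM in S51A cells against 221, 217 and 224 FPKM in WT cells. Vars, for valine, was at 86.8, 88.6 and 89.3 FPKM in S51A cells against 148, 144 and 141 FPKM in WT cells. Lars, for leucine, was at 45.9, 44.9 and 45.3 FPKM in S51A cells against 71.0, 71.5 and 72.5 FPKM in WT cells. These 3 genes differed between the lines by 1.55- to 1.71-fold at every time. Farsb, a subunit of the phenylalanyl-tRNA synthetase, was at 35.8, 34.8 and 36.3 FPKM in S51A cells against 60.1, 60.5 and 58.5 FPKM in WT cells. Qars, for glutamine, was at 39.4, 40.5 and 36.5 FPKM in S51A cells against 74.0, 70.5 and 73.5 FPKM in WT cells. Yars was at 39.7, 42.5 and 44.6 FPKM in S51A cells against 85.0, 78.2 and 78.2 FPKM in WT cells. Wars was at 23.6, 22.9 and 21.6 FPKM in S51A cells against 39.4, 39.4 and 32.9 FPKM in WT cells.

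**Figure D1:**
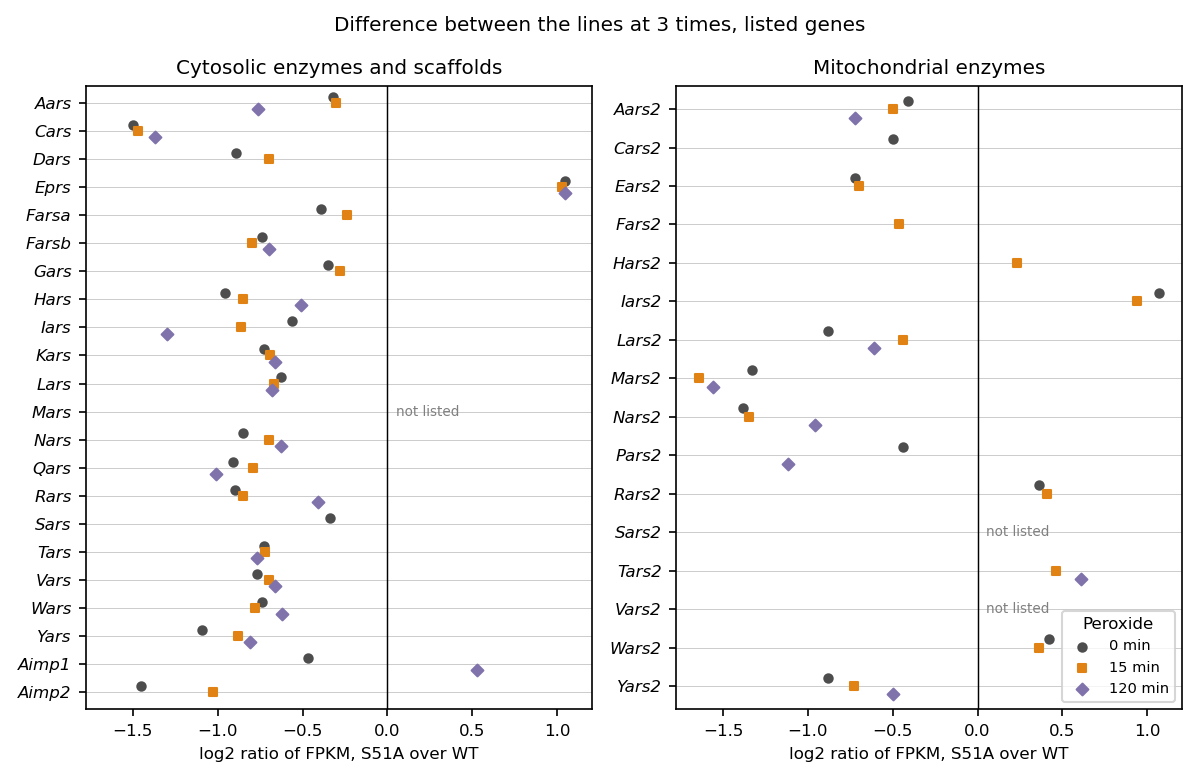
Log2 ratio of FPKM, S51A over WT (x axis), of each listed member (y axis) at 0, 15 and 120 min of peroxide, with cytosolic enzymes and scaffolds on the left and mitochondrial enzymes on the right. Points left of 0 are lower in S51A cells: among the cytosolic enzymes Eprs alone lies to the right, near 1.05, beside the scaffold gene Aimp1 at 120 min, whereas 5 mitochondrial enzymes do at 15 min, of which Iars2 alone by at least 1.5-fold.

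Of the cytosolic members absent from a later table, 3 had small differences where listed. Sars, for serine, was listed at 0 min alone, with 48.8 FPKM in S51A cells and 61.8 FPKM in WT cells. Gars and Farsa were listed at 0 and 15 min. Farsa, the other phenylalanyl subunit, was at 55.7 and 56.9 FPKM in S51A cells against 73.0 and 67.6 FPKM in WT cells at these times, and its fold of 1.18 at 15 min was the smallest of the class. Dars, for aspartate, had a larger difference, with 63.1 and 67.6 FPKM in S51A cells against 117 and 110 FPKM in WT cells at 0 and 15 min, and it was not listed at 120 min.

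The members were also divided by the multisynthetase complex. Of its enzymes, 6 of 7 listed members were lower in S51A cells at 0 min, 6 of 7 at 15 min and 5 of 6 at 120 min. The enzymes outside it were lower for 12 of 12, 11 of 11 and 9 of 9. Entries in the range of the cytosolic WT levels were lower in 84.8%, 77.4% and 55.5% of cases at these times, and all listed entries in 50.4%, 50.1% and 49.1%, so the complex's share at 0 min was near that of abundant genes. The scaffold genes differed from each other over time. Aimp2 was 2.73-fold lower at 0 min, with 52.3 FPKM in S51A cells and 143 FPKM in WT cells, and 2.04-fold lower at 15 min, with 60.1 FPKM in S51A cells and 123 FPKM in WT cells. Aimp1 was lower at 0 min, at 76.6 FPKM in S51A cells and 106 FPKM in WT cells, and higher at 120 min, at 148 FPKM in S51A cells and 103 FPKM in WT cells. The third scaffold gene, Eef1e1, which is no member, was at 40.5 FPKM in S51A cells and 147 FPKM in WT cells at 0 min, 3.63-fold lower. It was not listed at 120 min.

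Cytosolic members were also divided by whether they are known, as background, to depend on ATF4 in mouse cells. The 13 genes of this kind had 11 of 12 listed members lower in S51A cells at 0 min, 10 of 11 at 15 min and 9 of 10 at 120 min, with median log2 ratios of -0.68, -0.70 and -0.72. The 7 other cytosolic genes were lower in all 7, 7 and 5 listed cases, with median log2 ratios of -0.89, -0.79 and -0.66. Both sub-groups are read against the same shares of 84.8%, 77.4% and 55.5%, and the difference between them was not tested. A list of 21 other genes, Atf4 itself and known targets of ATF4, had 13 of 18 listed genes lower at 0 min, 12 of 17 at 15 min and 10 of 11 at 120 min, against 50.4%, 50.1% and 49.1% of all listed entries. At 120 min the 4 with the largest differences, all lower in S51A cells, were further apart between the lines than any synthetase gene. Chac1, a glutathione-degrading enzyme, was then at 0.503 FPKM in S51A cells and 17.6 FPKM in WT cells. Sesn2, a leucine sensor, was at 2.77 FPKM in S51A cells and 40.5 FPKM in WT cells. Slc7a11, a cystine transporter, was at 0.232 FPKM in S51A cells and 3.14 FPKM in WT cells, and the pseudokinase gene Trib3 at 3.36 FPKM in S51A cells and 36.8 FPKM in WT cells. Nupr1, the gene of this list that was higher at 120 min, was at 120 FPKM in S51A cells and 35.5 FPKM in WT cells. Its fold of 3.39 was also larger than that of any synthetase gene at that time. In WT cells the median log2 change of the ATF4-dependent synthetases between 0 and 120 min was -0.01 over 10 genes, against -0.10 over all genes listed in both tables. In S51A cells it was -0.03, against -0.18.

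Promoter windows were searched for the C/EBP-ATF response element, written as TGATGNAA, on both strands. RefSeq windows on GRCm38.p6, from 250 bases before to 50 after a gene's start, were given for 29 of the 38 members. The element was found in 5 of 13 cytosolic, 0 of 14 mitochondrial and 0 of 2 scaffold members, against 4.51% of 27025 genes. All 5 were among the 8 ATF4-dependent members with a window, and none of the 5 other cytosolic members with a window had a match. That sub-group of 13 genes was set from general knowledge, which may itself draw on such elements, so this split is not an independent result. A match is a description of letters, and the absence of one says only that these letters were not in the window. A match is shown for each gene, with 11 bases on either side, 5′ to 3′ in the direction of the gene, with the element or its reverse complement in capitals. They lie at chr8:111033840-111033869 (Aars, plus strand), chr6:55037960-55037989 (Gars, plus), chr13:49682126-49682155 (Iars, plus), chr15:11399655-11399684 (Tars, minus) and chr4:129189895-129189924 (Yars, plus).
Aars: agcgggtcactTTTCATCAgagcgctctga
Gars: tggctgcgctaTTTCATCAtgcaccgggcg
Iars: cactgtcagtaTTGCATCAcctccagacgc
Tars: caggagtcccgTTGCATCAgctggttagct
Yars: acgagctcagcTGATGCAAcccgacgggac

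Iars, Tars and Yars share the same 8 letters, TTGCATCA or its reverse complement. Of the 5 genes with a match, Iars and Aars are the cytosolic members whose difference between the lines grew most by 120 min. The difference of Yars became smaller, that of Tars stayed between 1.65- and 1.71-fold, and Gars was not listed at 120 min. Iars and Aars also have long transcripts, of 4426 and 5750 nt, and such changes went with length, as described below. Among mitochondrial members without a match, the difference also grew for Aars2 and Mars2 and became smaller for Lars2, Nars2 and Yars2. The part of the element in these changes was not tested. The bases before the start are given for Tars, as an example with the element (chr15:11399659-11399908, minus strand), and for Eprs (chr1:185362794-185363043, plus strand) and Iars2 (chr1:185329402-185329651, minus strand), which had no match and are described next.
Tars: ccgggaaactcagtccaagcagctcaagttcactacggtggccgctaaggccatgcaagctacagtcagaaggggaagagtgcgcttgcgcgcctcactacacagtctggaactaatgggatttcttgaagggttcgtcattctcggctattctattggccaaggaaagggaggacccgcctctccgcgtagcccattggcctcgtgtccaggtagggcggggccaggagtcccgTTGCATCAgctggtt
Eprs: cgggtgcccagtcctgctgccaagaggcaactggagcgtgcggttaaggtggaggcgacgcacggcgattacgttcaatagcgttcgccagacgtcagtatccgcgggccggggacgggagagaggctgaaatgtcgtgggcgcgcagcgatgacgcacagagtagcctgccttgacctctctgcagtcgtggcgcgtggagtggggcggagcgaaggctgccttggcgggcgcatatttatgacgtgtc
Iars2: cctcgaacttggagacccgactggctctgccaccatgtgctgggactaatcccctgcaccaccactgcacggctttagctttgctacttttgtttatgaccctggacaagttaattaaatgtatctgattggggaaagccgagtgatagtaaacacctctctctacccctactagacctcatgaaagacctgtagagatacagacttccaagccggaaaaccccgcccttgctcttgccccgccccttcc

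The cytosolic exception was Eprs, which encodes the enzyme that charges both glutamate and proline tRNAs. It was at 78.2, 75.6 and 75.6 FPKM in S51A cells at 0, 15 and 120 min, against 37.8, 36.8 and 36.5 FPKM in WT cells. The authors' deposited table gave it a log2 ratio of 1.05, 1.03 and 1.05 at these times. The mitochondrial gene with the largest higher call was Iars2, at 25.8 and 24.3 FPKM in S51A cells at 0 and 15 min, against 12.3 and 12.6 FPKM in WT cells. It was not listed at 120 min. Eprs lies at chr1:185363095-185428355 (mm10, as deposited), and the end of the interval deposited for Iars2 lies 33.7 kb before it. Iars2 shares its deposited interval, chr1:185204168-185329401, with Rab3gap2, so reads may have been divided between overlapping models. Rab3gap2 was also higher, at 10.6 FPKM in S51A cells and 5.35 FPKM in WT cells at 0 min.

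Chosen after these values were seen, the other genes of that stretch were examined. Within 2.5 Mb of the start of Eprs, all 15 listed entries at 0 min, all 16 at 15 min and all 15 at 120 min were higher in S51A cells, Eprs and Iars2 included where listed. Their median log2 ratios were 1.17, 1.13 and 1.08. On the whole of chromosome 1, 45.3%, 41.1% and 45.5% of listed entries were higher. The unbroken run of higher calls around Eprs held 40 listed entries over 10.7 Mb at 0 min, and 42 over 10.8 Mb at both 15 and 120 min. Bpnt1, a phosphatase gene between Iars2 and Eprs, was at 22.3 FPKM in S51A cells and 13.7 FPKM in WT cells at 0 min. Tgfb2, a growth factor gene, was at 5.28 FPKM in S51A cells and 0.210 FPKM in WT cells. The part of the chromosomal region in the values of Eprs and Iars2 was not tested.

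**Figure D2:**
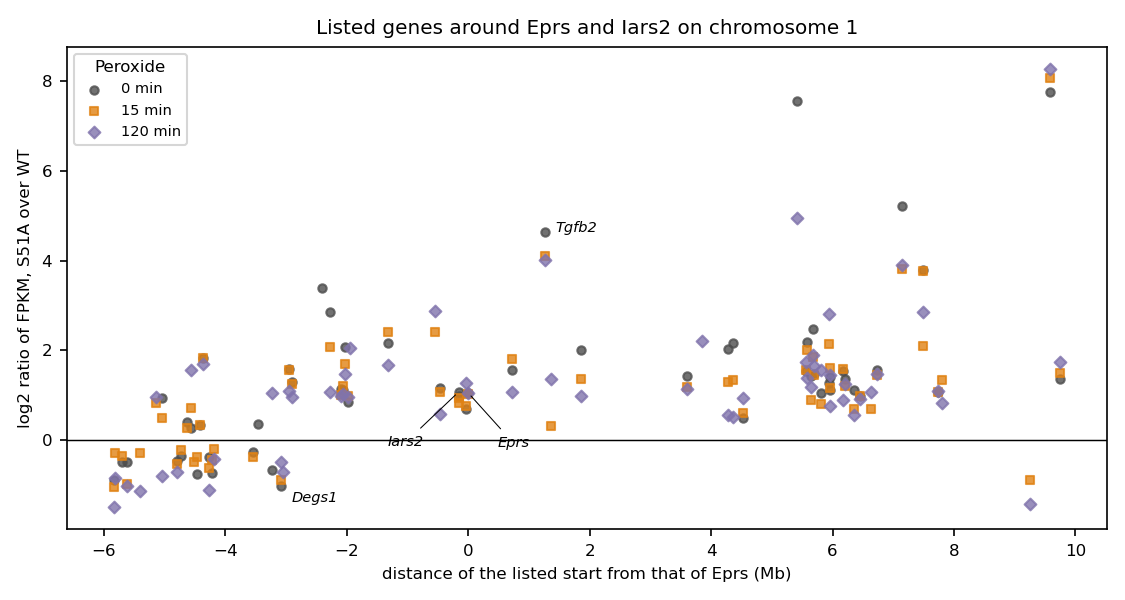
Log2 ratio of FPKM, S51A over WT (y axis), of genes listed at 0, 15 or 120 min, by the distance of their start from that of Eprs on chromosome 1 (x axis, Mb). Genes at 0 FPKM in a line are left out. To the right of Degs1 and of Fbxo28, which was at -0.72 at 120 min, both just beyond -3 Mb, the points lie above 0 up to about 7.8 Mb, with Eprs and Iars2 near a log2 ratio of 1.

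Mitochondrial enzymes were compared with cytosolic ones at each time. Their listed levels were lower per unit length, with medians of 4.82 FPKM in S51A cells and 7.62 FPKM in WT cells at 0 min, against cytosolic medians of 57.3 FPKM in S51A cells and 85.0 FPKM in WT cells. At 0 min, 8 of 11 listed mitochondrial members were lower in S51A cells and 3 were higher. At 15 min, 7 of 12 were lower and 5 higher, and at 120 min, 6 of 7 were lower and 1 higher. With a fold of at least 1.5, the higher members numbered 1 at each time, Iars2 at 0 and 15 min and Tars2 at 120 min, and 5, 4 and 5 were lower. Listed entries in the same range of WT level were lower in 46.2%, 49.1% and 57.6% of cases at the 3 times, and in 42.4%, 46.4% and 55.4% with the mean of both lines as the level. The median log2 ratio was -0.50, -0.45 and -0.72, so it was nearer to 0 than the cytosolic median at 0 and 15 min and further from 0 at 120 min. That last order turned round when 1 was added to each FPKM, with a cytosolic minus mitochondrial difference of -0.071 in place of 0.04. Sars2 and Vars2 were in none of the tables.

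Of the 16 mitochondrial members, 5 were listed at every time, and all 5 were lower in S51A cells throughout. Of the 3826 genes listed in all tables, 46.2% were lower and 44.9% higher at every time. The members listed as higher (Iars2, Rars2, Wars2, Tars2 and Hars2) were each missing at some time and so are not among these 5. Mars2, for methionine, had the largest difference of all members at 15 and 120 min, at 2.41, 2.53 and 0.959 FPKM in S51A cells at 0, 15 and 120 min, against 6.02, 7.89 and 2.83 FPKM in WT cells. Its level at 120 min was below that at 0 min in both lines. Nars2, for asparagine, was at 2.28, 2.17 and 2.45 FPKM in S51A cells against 5.94, 5.54 and 4.76 FPKM in WT cells. Yars2, for tyrosine, the most abundant of these 5 genes, was at 23.8, 24.6 and 29.9 FPKM in S51A cells against 43.7, 40.8 and 42.5 FPKM in WT cells. Aars2, for alanine, was at 5.74, 5.74 and 4.17 FPKM in S51A cells against 7.62, 8.11 and 6.82 FPKM in WT cells. Lars2, for leucine, was at 4.82, 7.11 and 6.41 FPKM in S51A cells against 8.88, 9.65 and 9.71 FPKM in WT cells.

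**Figure D3:**
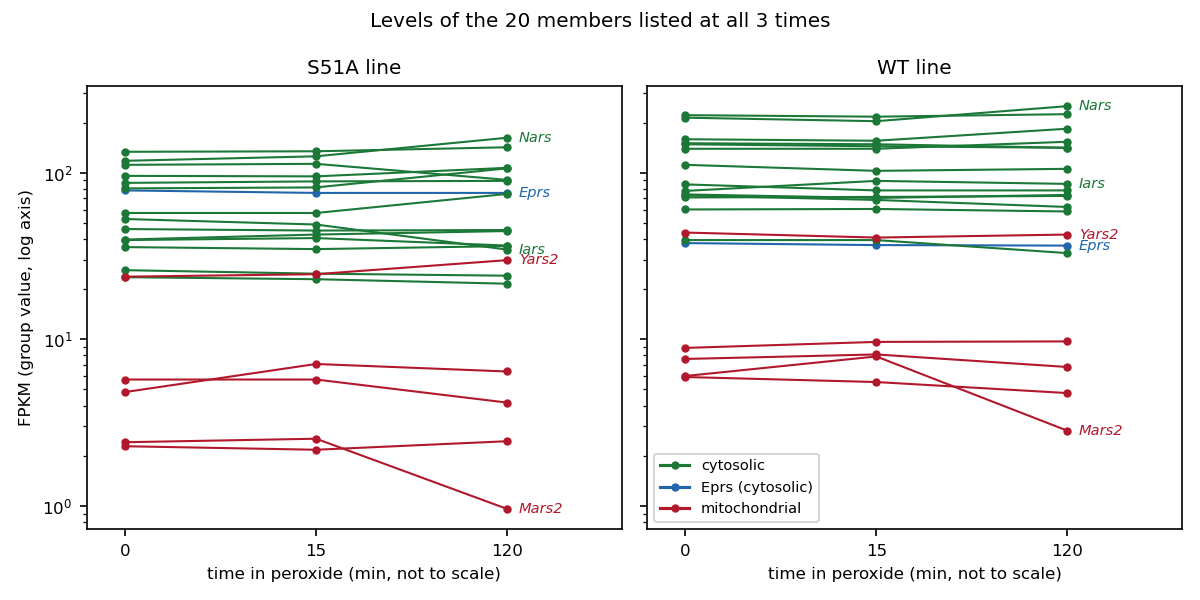
FPKM (log axis) of the 20 members listed at every time, in S51A cells (left) and WT cells (right), by time in peroxide; each line is 1 gene and each point 1 group value, with no error available. Eprs lies near the middle of the cytosolic genes in S51A cells, at 75.6 FPKM at 120 min, and among the least abundant cytosolic ones in WT cells, at 36.5 FPKM.

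Members listed at fewer times completed the class. Pars2, for proline, was at 2.97 and 1.34 FPKM in S51A cells at 0 and 120 min, against 4.03 and 2.91 FPKM in WT cells. Ears2, for glutamate, was at 1.41 and 1.34 FPKM in S51A cells at 0 and 15 min, against 2.33 and 2.17 FPKM in WT cells. Both mitochondrial counterparts of Eprs were therefore lower where listed. Cars2 was lower at 0 min alone, at 10.6 FPKM in S51A cells and 15.0 FPKM in WT cells. Fars2 was lower at 15 min alone, at 4.79 FPKM in S51A cells and 6.59 FPKM in WT cells.

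The higher mitochondrial members beside Iars2 had small differences. Rars2, for arginine, was at 14.5 and 14.2 FPKM in S51A cells at 0 and 15 min, against 11.3 and 10.7 FPKM in WT cells. Wars2, for tryptophan, was at 3.73 and 3.71 FPKM in S51A cells at these times, against 2.79 and 2.91 FPKM in WT cells. Tars2, for threonine, was the only mitochondrial member listed as higher at 120 min, with 16 and 21 FPKM in S51A cells at 15 and 120 min, against 11.6 and 13.7 FPKM in WT cells. Hars2, for histidine, was listed at 15 min alone, at 12.7 FPKM in S51A cells and 10.9 FPKM in WT cells, with a q-value of 0.0402 in the authors' deposited table.

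Set beside each other by amino acid, 17 pairs of a cytosolic and a mitochondrial gene were formed, with both phenylalanyl subunits set against Fars2 and Eprs set against Ears2 and Pars2. At 0 min, both genes were lower in S51A cells in 5 pairs, directions were opposite in 5, and a gene was not listed in 7. At 15 min the counts were 6, 6 and 5, and at 120 min 4, 2 and 11. These pairs are not distinct, since Eprs and Fars2 are each used repeatedly. The opposite pairs included Eprs with Ears2 at 0 and 15 min and Eprs with Pars2 at 0 and 120 min. Farsa and Farsb, each with Fars2, were among the pairs with both genes lower at 15 min. No pair had both genes higher, which follows from Eprs being the only higher cytosolic gene, with partners lower where listed. A background share for the pair counts was not computed. For isoleucine the cytosolic level was 2.04 times the mitochondrial one in S51A cells and 6.32 times in WT cells at 0 min. For arginine it was 5.54 times in S51A cells and 13.3 times in WT cells. For glutamate the order of the lines was turned round, with Eprs at 55.3 times Ears2 in S51A cells and 16.2 times in WT cells. For tyrosine, where both genes were lower, the lines were closer, at 1.67 times in S51A cells and 1.95 times in WT cells.

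Of 19 partners of tRNA charging, 10 of 12 listed genes were lower in S51A cells at 0 min, 10 of 11 at 15 min and 3 of 3 at 120 min, against 50.4%, 50.1% and 49.1% of all listed entries. Their shares beside genes of like abundance were not computed. Those listed at 120 min included Elac2, a tRNA-processing nuclease, at 7.06 FPKM in S51A cells and 19.3 FPKM in WT cells, and Eef1a1, the elongation factor that carries charged tRNA, at 3517 FPKM in S51A cells and 5367 FPKM in WT cells. Of 9 mitochondrial translation factors, 2, 4 and 1 were listed at 0, 15 and 120 min, and all of these were lower. Tufm, the mitochondrial factor that carries charged tRNA, was at 22.3, 22 and 26.2 FPKM in S51A cells, against 58.9, 54.9 and 55.7 FPKM in WT cells.

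How the difference between the lines moved between 0 and 120 min could be followed in 22 members listed at both times. The log2 ratio at 120 min minus that at 0 min had a median of 0.09 over these members, against -0.05 over 4272 genes. It went with transcript length over all genes, with Pearson r = -0.65 against the log10 of the longest coding transcript in GENCODE M21 (4102 genes with a length). Over the 22 members r was -0.60. Genes are not independent replicates, and these values are descriptions. All 5 members under 2.2 kb (Aimp1, Farsb, Hars, Kars and Rars) had a higher log2 ratio at 120 min than at 0 min, by 0.04 to 1.00. Of 11 members between 2.2 and 4 kb, 7 had a higher and 4 a lower one, by -0.68 to 0.42. Of 6 members of 4 kb and over, 1 had a higher one, 4 a lower one and 1 the same. Mars2, among the lower ones, was placed there by a transcript of 11294 nt. Its deposited interval, chr1:55237177-55240058, is shorter than that, so this length may not be that of the model measured. Mars2 also enters the r over the members. The part of transcript length in the members' courses was not tested.

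**Figure D4:**
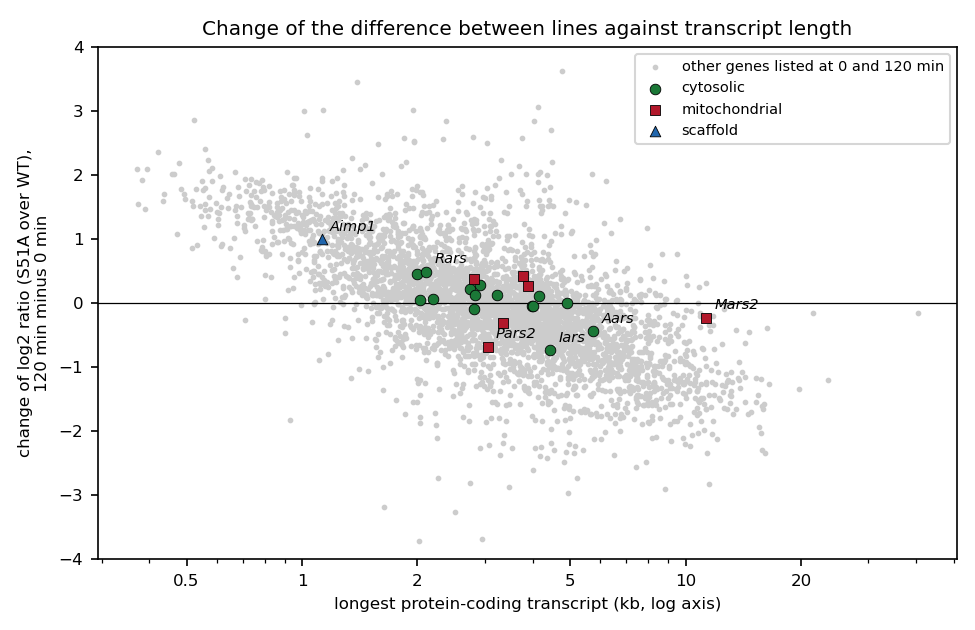
Change of the log2 ratio of S51A over WT from 0 to 120 min (y axis) against the longest protein-coding transcript (x axis, kb, log axis), for members (coloured) and other genes listed at both times (grey; 5 other genes lie beyond the y axis). Members follow the downward slope of the other genes, from Aimp1 at 1.00 to Iars at -0.74. Mars2, at -0.23, is plotted as the longest, at a transcript length that exceeds its deposited interval.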

How the data were processed

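The 3 deposited tables give per line the log2 FPKM, their log2 ratio and a q-value, per the file headers. The authors had combined the samples of a group into 1 value before deposit. Tools named per the submitters' processing notes are Cuffdiff, Cufflinks and STAR, and the build is mm10, with no version or role. No source used here names the annotation. All deposited entries are marked significant, so genes that were not called are not seen. A ratio of log2 values in each table, 3 columns in all, was not used. FPKM was recomputed as a power of 2 from the authors' log2 values, which carry 2 decimals. Starts were raised by 1 to count from 1. Entries with several symbols, with repeated symbols or with symbols turned into dates were left out of gene lists.

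Members, sub-groups and lists were chosen with earlier results of these data known, so no list was tested. Calls are those of the authors. Changes over time used log2 of FPKM plus 1. Members were named where they were listed at every time, went against their class or had the largest or smallest fold. Python 3.11.15, pandas 2.3.3, scipy 1.17.1 and matplotlib 3.10.9 were used, and the counting was tested on simulated directions. The depth is unknown.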

Additional observations from a re-analysis of the deposited data

Results flagged for a closer look

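Aimp1 was the only member with calls in both directions. Its log2 ratio of S51A over WT was 0.53 at 120 min and -0.47 at 0 min, and it was not listed at 15 min. The difference between these times was not tested, since only group values were used. Of 2242 genes listed as lower at 0 min and also listed at 120 min, 449 were listed as higher at 120 min.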

How the results depend on the processing

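No paired analysis was possible because the deposited tables hold 1 value per line, so the replicate block and the fits without single replicates were not run. Cytosolic counts of lower genes stayed within 1.5 times of those reported with a q-value of at most 0.01, a fold of at least 1.5, at least 5 FPKM, or without Gars and Kars or Eprs. With a fold of at least 1.5, 5 mitochondrial members were lower at 0 min, where 1 was higher in place of 3, and 4 were lower at 15 min, where 1 was higher in place of 5. With a q-value of at most 0.01, 1 was higher at 0 min and 4 at 15 min. With at least 5 FPKM, 3 mitochondrial members were lower at 120 min in place of 6, and 1 was higher. The cytosolic median log2 ratio minus the mitochondrial one was -0.24, -0.26 and 0.04 at 0, 15 and 120 min, and -0.26, -0.31 and -0.071 with 1 added to each FPKM. Its sign at 120 min thus depends on that choice; adding 1 by construction shrinks the ratios of low-level genes most. Centred on all genes listed in both tables, the members' median log2 change from 0 min was -0.019 at 15 min and 0.21 at 120 min in S51A cells, and -0.049 at 15 min and 0.049 at 120 min in WT cells. Uncentred values were 0.00 and 0.03 in S51A cells and -0.04 and -0.05 in WT cells. With the median transcript length in place of the longest, r over the members was -0.53. No error can be given for single values, and a member missing from a table sets no limit on its difference.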

Other observations

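The surroundings of every member were also examined, a choice made after the values of Eprs were seen. Here the window was 500 kb on either side of the gene and members were left out. The stretch within 2.5 Mb of Eprs had included them, so the shares are not alike. Of 6 members listed as higher in S51A cells at 15 min, 5 had mostly higher neighbours among the listed genes within 500 kb on either side, and Hars2 did not. Distinct neighbours of the higher members were higher in 32 of 43 cases, against 90 of 217 for the 25 members listed as lower. At 0 min these counts were 7 of 7 for the 4 higher members and 111 of 241 for the 28 lower ones. At 120 min they were 19 of 21 for the 3 higher members and 54 of 127 for the 20 lower ones. Of all listed entries, 49.6%, 49.9% and 50.9% were higher at 0, 15 and 120 min. Few places make up these counts. At 120 min Tars2 gave 17 of 18, Eprs 2 of 2 and Aimp1 0 of 1, and at 0 min Eprs and Iars2 lie in the same stretch. Tars2, on chromosome 3, had 20 of 22 neighbours higher at 15 min. Sars, on the same chromosome, was lower at 0 min although all 14 of its listed neighbours were higher. Yars2 (6 neighbours), Tars (3), Farsb (2) and Nars (2) were likewise lower at 0 min among neighbours that were all higher. Within 1000 kb, neighbours of the higher members were higher in 10 of 13 cases at 0 min, 52 of 69 at 15 min and 35 of 39 at 120 min. For the lower members these counts were 167 of 367, 143 of 346 and 83 of 193. Wars2 then had 3 of 6 neighbours higher at 0 min, in place of 1 of 1.

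Chromosomes differed in the share of listed entries higher in S51A cells, which at 0 min ran from 28.9% on chromosome 9 to 75.8% on chromosome 19. It was 73.6% on chromosome 3, which holds Tars2, Wars2, Sars and Aimp1, and 28.9% on chromosome 9, which holds Qars and Lars2. Tarsl2, a further threonyl-tRNA synthetase-like gene outside the members, was lower in S51A cells, at 6.87 FPKM in S51A cells and 9.51 FPKM in WT cells at 0 min.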
